A study of Mus musculus with 8 samples.

Results

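The change of m6A immunoprecipitation over Input after Mettl14 knockdown was measured at 33774 sites of the genome of αTC1-6 cells, and no site and no gene passed the test for a change. All 33774 sites of the deposited table and all 8 count columns entered, so no site was chosen here by its change. How the deposited list was called, and from which libraries, is not given in the sources used. After a filter on low counts 33356 sites were tested, as were 6379 of the 6531 genes whose spans hold a site. The quantity is a difference of differences on the log2 scale: M14KD IP minus M14KD Input, less SCR IP minus SCR Input. It is called the change of IP over Input here, is negative where M14KD is lower, and is 0 where the antibody fraction follows the RNA.

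αTC1-6 is an immortalized mouse alpha cell line, and the 4 groups of libraries all came from it. SCR cells received a scramble siRNA and M14KD cells a siRNA against Mettl14. An siRNA lowers a transcript without removing it. Each genotype gave 2 Input libraries and 2 IP libraries made with an antibody against m6A after ultraviolet crosslinking (m6A-eCLIP, which reports sites at single bases). IP and Input libraries share replicate numbers, 1 and 2 for SCR and 3 and 4 for M14KD, which gives 4 pairs of libraries. The labels do not say whether the replicates were separate cultures, so p-values measure the spread between these libraries, which may be technical.

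m6A is the most common internal mark of messenger RNA. METTL3 and METTL14 form the core of the enzyme that writes it, with METTL3 as the catalytic subunit and METTL14 holding the RNA. WTAP and VIRMA bring the enzyme to its targets, FTO and ALKBH5 remove the mark, and YTH-domain proteins read it. The mark is known to be dense around stop codons and in 3′ untranslated regions. Antibodies against m6A also bind m6Am, the methylated adenosine next to the cap, which another enzyme, PCIF1, makes.

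Most sites were 1 base wide (33724 sites), and 31928 sites were given 1 gene name from RefSeq spans, with a median of 3 sites per gene. Of these, 1065 also lay in the span of another gene. Sites were dense: 72.6% had another site within 100 bases, so neighbours are not independent measurements. Exons were not assigned, so a site is placed in a gene's span and by its distance from the ends, not in an exon, intron or untranslated region. Sequence around a site was read only where it lay close to an annotated start. Sites within 50 bases after a start are compared with the others below, so 5 of different genes with high total counts are shown. They are the highest among such sites with 10 bases on either side in the start window, with 1 chromosome left out. Start sites outside this choice may have higher counts. Each line gives 10 bases on either side of the reported base, which is in capitals, 5′ to 3′ on the gene's strand, from RefSeq on GRCm38.p6 (mm10).
Atp5pb, 37 bases after the start, chr3:105959227, minus strand: gggtcggggtCacagggacac
Atp5j2, 15 bases after the start, chr5:145191527, minus strand: ctgcggacacCaggacttcaa
Eif5a, 37 bases after the start, chr11:69921239, minus strand: gcggcggcggCagcacagtag
Atp5g1, 30 bases after the start, chr11:96075602, minus strand: ttgagcagggAgtgtgctgtg
Hmgn1, 32 bases after the start, chr16:96127694, minus strand: gtcgcagcagTtcgtgtggtg

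Input libraries held 3438530 to 3637740 counts and IP libraries 10207383 to 10918559, with median counts per site of 31 to 34 and 162 to 177. Alpha cell markers were well covered: 8 of 12 had a site, Gcg and Ttr among them, and they summed to 61470 to 64930 CPM (counts scaled to the library total) in the SCR Inputs and 71823 to 72544 in the M14KD Inputs. Of 10 markers of other islet cells none had a site, Ins1 and Ins2 included, and of 10 markers of non-endocrine cells only Sox9 had one, at no more than 1.74 CPM. Mettl14 had 2 sites. Summed over them, the Inputs held 64 and 44 counts in SCR against 32 and 22 in M14KD, and the IPs 78 and 81 against 42 and 25. The M14KD libraries were the lower ones in both kinds, without overlap. The fitted Mettl14 change was -0.95 ± 0.28 (SE) in Input and -1.18 ± 0.25 in IP, with adjusted p = 0.219 and 0.0714 in edgeR's quasi-likelihood test.

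The first question was whether any site lost or gained IP signal relative to its Input. By edgeR's quasi-likelihood test 0 of 33356 sites passed (0%), with a lowest adjusted p of 0.891. At an unadjusted p under 0.05 there were 1242 sites (3.72%), 576 higher and 666 lower in M14KD, where evenly spread p-values would give 1668. DESeq2 called 0 sites (318 unadjusted), and limma on the 4 pair ratios called 0 (1865 unadjusted). With the replicate number as a block, which pairs each IP library with its Input, edgeR called 1 site (1997 unadjusted), in Atoh8. At gene level edgeR called 0 of 6379 genes (0%), with 168 (2.63%) at an unadjusted p under 0.05, 60 higher and 108 lower, and a lowest adjusted p of 0.999. DESeq2, limma and the block also called 0 genes, with 58, 373 and 421 unadjusted.

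The values were centred on 0. The median change was -0.00 on the log2 scale over sites, with quartiles of -0.19 and 0.19, and 50.3% of sites lay below 0. Over genes the median was 0.00, with quartiles of -0.14 and 0.13. Scaling uses the site counts themselves, so a loss of equal size at all sites leaves these values as they are and cannot be seen. The same fit called 300 sites (0.899%) for the IP change and 28 (0.0839%) for the Input change. It called 11 genes (0.172%) and 1 gene (0.0157%) for these. The IP change has the smaller error, a median SE of 0.14 against 0.26 for Input and 0.30 for the difference between them.

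**Figure D1:**
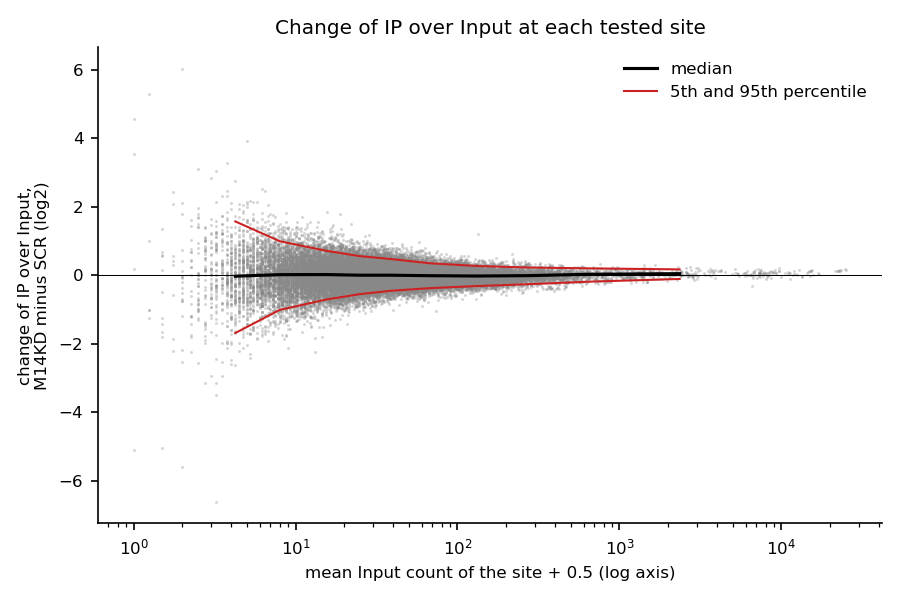
Each point is 1 tested site, with its mean Input count on a log axis and the change of IP over Input (M14KD minus SCR, log2) on the vertical axis. The black line is the median and the red lines are the 5th and 95th percentiles in bins of Input count. The spread narrows as the Input count rises, the median stays near 0, and the median over all sites is -0.00.

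For a change relative to the other sites, what the data could have shown is given by the intervals. A fall shared by all sites cannot be seen in them, because the scaling uses the site counts. The 95% interval of the change lay above a 2-fold fall (-1 on the log2 scale) at 80.9% of sites and at 86.0% of genes. Among the 23278 sites with a mean count of at least 20 in both IP and Input it did so at 93.5%. Among the 3234 of these with IP over Input of at least 2-fold, the sites with strong antibody signal, it did so at 93.8%, and at 61.7% it also lay above a 1.5-fold fall. Without the count filter enriched sites were measured less well: the interval lay above a 2-fold fall at 73.3% of the 6515 sites at 1 and above on the log2 scale, at 63.4% of the 811 sites at 2 and above, and at 31.1% of the 61 genes at 2 and above. Over all sites the interval lay wholly below -1 at 2 sites and wholly above 1 at 2 sites, before any adjustment for the number of sites.

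Pairs of different genotype were about as far apart as pairs of the same genotype. Over the 23278 well-counted sites the median absolute difference of the pair ratio was 0.202 between the SCR pairs and 0.211 between the M14KD pairs, and it ran from 0.206 to 0.219 for the 4 combinations of an SCR with an M14KD pair. Over 5212 well-counted genes it was 0.140 and 0.142 within genotypes and 0.148 to 0.154 between them. Each of the 4 between-genotype gene values exceeded both within-genotype values.

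IP over Input itself marked largely overlapping sets of sites in both genotypes. In SCR 11352 sites (34%) were higher in IP than Input, and in M14KD 11261 (33.8%). Both lists shared 9947 sites, which is 87.6% of the SCR list and 88.3% of the M14KD list. Sites lower in IP numbered 11134 and 11050, with 9936 shared (89.2% and 89.9%). At gene level 2245 genes (35.2%) were enriched in SCR and 2263 (35.5%) in M14KD, with 2015 shared. Across the 33356 sites IP over Input in SCR and in M14KD had Pearson's r = 0.94, given as a description, since the sites share libraries and sets of neighbouring sites share a transcript.

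A single site passed in opposite directions, in the span of Pgm5, a relative of the phosphoglucomutases (chr19:24861784, mm10). It had 88 and 92 Input counts in the SCR libraries against 51 and 65 in the M14KD ones. In IP it had 329 and 359 against 370 and 350. IP over Input was -0.35 in SCR (adjusted p = 0.0329, edgeR) and 0.36 in M14KD (adjusted p = 0.0460), while the change itself, 0.70 ± 0.21 (SE), did not pass (adjusted p close to 1, edgeR). The lower Input of the M14KD libraries makes up most of it, with an Input change of -0.57 against an IP change of 0.13.

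Strongly enriched sites are where a loss of the mark would be looked for first. Sites were classed by IP over Input averaged over both genotypes, so that neither genotype set the class. The 811 sites at 2 and above (log2) had a median change of 0.01 with quartiles of -0.30 and 0.30. The 5704 sites from 1 to 2 had a median of 0.01, the 10699 from 0 to 1 a median of 0.00, the 9513 from -1 to 0 a median of -0.01, and the 6629 under -1 a median of 0.00. The distance between the top and the bottom class was 3.73 and 3.75 in the SCR pairs and 3.76 and 3.72 in the M14KD pairs. The M14KD pairs lay on either side of both SCR pairs, and the difference of the means was 0.00 ± 0.03 (SD of the difference, 2 pairs a genotype; exact two-sided permutation p = 1, smallest possible 0.333). For genes the distance was 3.58 and 3.56 in SCR against 3.62 and 3.60 in M14KD. These pairs did not overlap, and the difference was 0.04 ± 0.02 (SD; exact two-sided permutation p = 0.333, the smallest possible), with M14KD the wider. From the lowest to the highest class the gene medians were -0.01, -0.02, 0.02, 0.02 and -0.02. In the 1918 genes from -1 to 0 the pair medians were -0.43 and -0.42 in SCR against -0.44 and -0.45 in M14KD. In the 2409 genes from 0 to 1 they were 0.46 and 0.46 against 0.49 and 0.48. Neither of these 2 classes overlapped between genotypes.

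Small differences appeared by position in the gene. Of the 6 ways of dividing the sites described here, the divisions by distance to the 3′ end of the gene span and by sites per gene gave ordered series of medians. Under 500 bases from the end the median change was -0.05 (3640 sites), from 500 to 2000 bases -0.02 (8528), from 2000 to 10000 bases 0.01 (8491), and from 10000 bases on 0.03 (4993). Close to the 3′ end 58.8% of sites lay below 0. Both M14KD pair ratios lay below both SCR ratios at 24.9% of them and above at 13.7%, where all sites gave 18.1% below and 17.2% above. Far from the 3′ end these shares turned round, to 14.8% below and 19.6% above. These values cover the 25652 tested sites whose gene had a strand in the tables used.

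The gap between near and far sites was seen in each library pair. Near sites lay below far sites in IP over Input by a median of -0.33 and -0.32 in the SCR pairs and -0.39 and -0.38 in the M14KD pairs. The genotypes did not overlap, with a difference of -0.06 ± 0.01 (SD; exact two-sided permutation p = 0.333, the smallest that 2 pairs against 2 allow). In the IP libraries alone the near minus far gap in log2 CPM differed between genotypes by -0.05 ± 0.05 (SD), and in the Input libraries by 0.00 ± 0.06. Within the 186 genes that had both kinds of site, near minus far was -0.11 at the median and below 0 in 61.8% of genes. The pair values within genes were -0.01 and -0.08 in SCR against -0.12 and -0.17 in M14KD, again without overlap. Over the enrichment classes the near minus far gap of the fitted change was -0.13, -0.07, -0.07, -0.01 and -0.04 from the lowest to the highest class. The gap was thus smallest at the sites with IP over Input from 1 to 2. Near sites also had deeper Inputs, with a median count of 58.9 against 23.0, and with both counts at least 20 the gap was -0.07. No near or far site passed the test on its own, and the part of Input depth in the gap was not tested beyond that value.

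Sites just after an annotated start differed the other way. This class was formed after the values had been seen, so it is a description. It holds 431 tested sites within 50 bases after a RefSeq start of their own gene, in 333 genes, such as the 5 printed above. Their IP over Input was low in all 4 pairs, with medians of -1.03 and -1.06 in SCR against -0.97 and -1.01 in M14KD. The M14KD pairs were both the higher ones. The median change was 0.09 with quartiles of -0.05 and 0.22, and 32.9% of sites lay below 0. Both M14KD ratios lay above both SCR ratios at 140 sites (32.5%, against 17.2% of all sites) and below at 39 (9.05%, against 18.1%). By edgeR 0 passed and 19 (4.41%) had an unadjusted p under 0.05.

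The start sites of the 3 printed genes Atp5pb, Atp5j2 and Hmgn1 lay above both SCR pairs in both M14KD pairs. Atp5pb, a subunit of the ATP synthase, had pair ratios of -1.21 and -1.24 in SCR against -1.07 and -1.13 in M14KD, and a change of 0.13 ± 0.12 (SE). Atp5j2, also an ATP synthase subunit, had -1.02 and -0.96 against -0.74 and -0.95, and a change of 0.14 ± 0.13. Hmgn1, a nucleosome-binding protein, had -1.33 and -1.42 against -1.21 and -1.20, and a change of 0.17 ± 0.12. At the sites of Eif5a, a translation factor, and Atp5g1, another ATP synthase subunit, the genotypes overlapped, with changes of -0.01 ± 0.14 and 0.04 ± 0.14. Every one of these intervals included 0.

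Compared with the 31101 other named sites, start sites had a fitted change higher by 0.09, which was 0.06 without M14KD replicate 3 and 0.14 without M14KD replicate 4. In pair ratios, start sites minus other named sites gave -1.10 and -1.13 in SCR against -1.04 and -1.08 in M14KD, a difference of 0.06 ± 0.04 (SD; exact two-sided permutation p = 0.333, the smallest possible). The class moved in both fractions, with a median IP change of 0.14 and a median Input change of 0.07, against 0.00 and 0.00 at other named sites. Within the 219 genes that also had other sites the answer depended on the measure. The fitted change of start sites minus the other sites of the gene had a median of 0.07 and was above 0 in 60.3% of genes. The median pair ratios of the same contrast were 0.01 and -0.13 in SCR against -0.10 and -0.05 in M14KD, which overlap and give a difference of -0.01 ± 0.10 (SD; exact two-sided permutation p = 1).

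The reported base at start sites was A at 37.1% of the 431 sites, C at 12.3%, G at 29.5% and T at 21.1%. Over the 50 bases after the start in all 32817 RefSeq start windows, A made up 21.7%, C 26.6%, G 30.1% and T 21.7%. The letters GAC, the core of the m6A motif, stood on the gene's strand in 26.5% of the 344 windows of 21 bases with 10 bases on each side, against 23.4% of reference windows of that length. On the other strand the shares were 28.5% and 21.98%. AAC stood in 13.95% against 18.3% (other strand 17.7% and 19.6%), and GGAC, which contains GAC, in 9.01% against 7.85% (other strand 7.56% and 6.61%). All reference windows of 21 bases lie at a fixed distance after the annotated starts, while the site windows lie at varying distances. These motif shares are thus not matched for position.

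**Figure D2:**
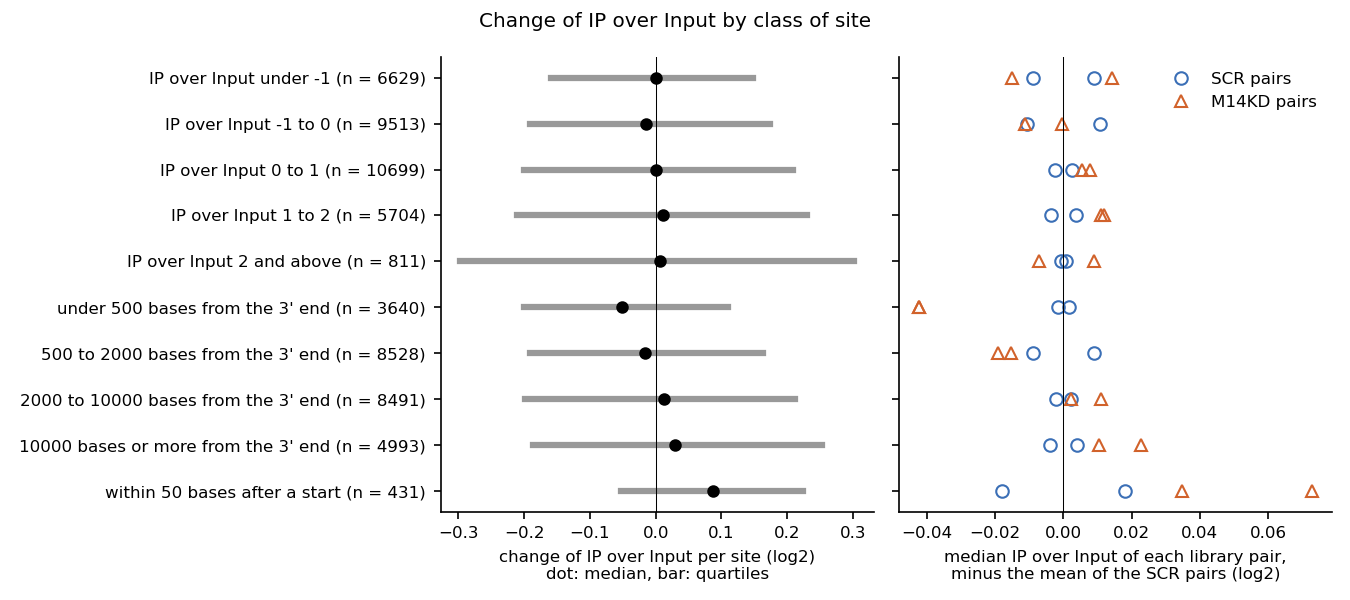
Left, the change of IP over Input (M14KD minus SCR, log2) per class of tested sites, with the median as a dot and the quartiles as a bar. Right, the median IP over Input of each library pair in the same class, less the mean of the SCR pairs, with circles for SCR and triangles for M14KD. The enrichment classes centre on 0, sites under 500 bases from the 3′ end have a median of -0.05, and sites within 50 bases after a start have one of 0.09.

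By number of sites in the gene the medians were -0.02 for sites alone in their gene (1509 sites), -0.01 for 2 to 4 sites (6843), -0.00 for 5 to 24 (21474) and 0.03 for 25 or more (1784). In the last class the pair medians were 0.14 and 0.13 in SCR against 0.18 and 0.21 in M14KD, and 20.3% of sites lay above without overlap and 13.7% below. Sites alone in their gene had pair medians of -0.54 and -0.49 against -0.56 and -0.59. Neither class overlapped between genotypes in these medians. The sites of the last class share genes, Peg10 and Irs2 among them. By mean Input count the medians ran from -0.01 at 100 and more to 0.01 under 10. The 11 sites in the spans of several noncoding genes had a median of 0.42, with a median Input count of 8.75. The 124 mitochondrial sites had a median of 0.06, and 18.5% of them lay below 0. The SCR and M14KD pair medians of these sites overlapped, at -2.49 and -2.65 against -2.55 and -2.47.

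Genes that write, read and remove m6A showed no call. Of 13 writer genes 7 were tested, with 2 above 0, 5 below and a median of -0.04, beside 0.00 over all tested genes. Mettl14 had pair ratios of -1.94 and -1.33 in SCR against -1.78 and -1.93 in M14KD, which overlapped, and a change of -0.23 (95% interval -1.03 to 0.58). The change is that of a transcript with 22 to 64 Input counts per library, so the interval spans a 2-fold fall. Wtap, the adaptor of the writer complex, had a change of 0.05 ± 0.15 (SE), and Virma, its scaffold, one of -0.01 ± 0.15. Rbm15, which brings the writer to RNA, had the lowest p of the list, at -0.87 ± 0.58 on Input counts of 3, 5, 6 and 7. Pcif1 had a change of -0.22 ± 0.26, with overlapping pairs.

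Of 14 readers and erasers 9 were tested, 6 above 0 and 3 below, with a median of 0.04. Alkbh5, an eraser, had a change of 0.24 ± 0.22 (SE), and the eraser Fto one of 0.04 ± 0.15. The readers Ythdf1, Ythdf2 and Ythdf3 had changes of -0.05 ± 0.12, 0.08 ± 0.12 and 0.06 ± 0.24, and the nuclear reader Ythdc1 one of -0.17 ± 0.37. In Elavl1, an RNA-stabilising protein with 18 to 26 Input counts, the change was -0.52 ± 0.36 and the M14KD pairs lay below the SCR pairs.

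Alpha cell identity genes lay mostly above 0. Of 22 genes 15 were tested and 0 passed, 11 lay above 0, and the median was 0.09. In 8 of the 15 both M14KD ratios exceeded both SCR ratios and in 1 they lay below, where 18.1% of all genes lay above and 18.4% below. Over 14 alternative settings the count above 0 ran from 9 to 12 and the median from 0.07 to 0.11. The lowest p belonged to Nkx2-2, a transcription factor of endocrine cells with 22 sites, whose ratios were -0.11 and -0.07 in SCR against 0.26 and 0.10 in M14KD. Its change was 0.26 ± 0.12 (SE; adjusted p = 0.999, edgeR), made of an IP change of -0.20 and an Input change of -0.46. Pax6, a regulator of the glucagon gene, had a change of 0.28 ± 0.19, Fev, a factor of endocrine progenitors, one of 0.21 ± 0.22, and Irx1, an alpha cell factor, one of 0.11 ± 0.10. Isl1, Neurod1 and Foxa2, regulators shared by islet cells, lay at -0.00, 0.03 and 0.02, each with overlapping pairs.

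Gcg, the glucagon gene, had Input counts of 186450 and 175933 in SCR against 209575 and 197369 in M14KD, summed over its 23 sites, and IP counts of 142227 and 127714 against 160906 and 153326. Its IP over Input was -2.66 and -2.71 in SCR against -2.63 and -2.61 in M14KD. The genotypes did not overlap, as was so with M14KD above in 18.1% of all genes, but the change was 0.07 (95% interval -0.10 to 0.23). Of these sites 18 lay above 0 and 5 below, from -0.11 to 0.14. Ttr, the transthyretin gene, gave -1.89 and -1.93 in SCR against -1.73 and -1.78 in M14KD, without overlap. Its IP rose by 0.42 ± 0.06 (SE; adjusted p = 0.00709, edgeR), the Input change of 0.26 ± 0.06 did not pass (adjusted p = 0.110), and the change of IP over Input was 0.15 ± 0.08 (adjusted p = 0.999). All 7 Ttr sites lay between 0.13 and 0.15 with non-overlapping pairs, where 17.2% of all sites had M14KD above without overlap. The 7 sites share a transcript and its libraries, so they are not independent. Every one of the 7 intervals included 0.

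A further 10 genes were followed because earlier work on these data had named them for a change in IP or Input, so they are no independent selection. In most of them the IP and Input changes were of like size. In bulk RNA, fewer cells that make a transcript and less of it per cell cannot be told apart in either change. Vgf, a granule protein precursor, is the clearest case: its IP fell by 0.80 ± 0.10 (SE; adjusted p = 0.00467, edgeR), its Input change was -0.80 ± 0.14, and the change of IP over Input was -0.00 (95% interval -0.30 to 0.30). Scg2, a granin, rose in IP by 0.42 ± 0.06 (adjusted p = 0.00709) and in Input by 0.43 ± 0.06 (adjusted p = 0.0164), which left -0.01 (interval -0.19 to 0.17). The signs of these small remainders turned in some settings.

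Genes of the stress response and of amino acid supply gave similar values. Trib3, a pseudokinase induced by ATF4, fell in IP by 0.65 ± 0.10 (adjusted p = 0.0104, edgeR), had an Input change of -0.69 ± 0.13, and gave 0.04 (interval -0.30 to 0.38). Atf3, a transcription factor of the stress response, fell in IP by 0.73 ± 0.14 (adjusted p = 0.0403) with an Input change of -0.76 ± 0.26, and gave 0.03 (interval -0.59 to 0.65). Slc7a5, a transporter of large neutral amino acids, fell in IP by 0.56 ± 0.09 (adjusted p = 0.0176), had an Input change of -0.46 ± 0.10 and gave -0.10 (interval -0.38 to 0.18). Its pair ratios were 0.75 and 0.72 in SCR against 0.64 and 0.64 in M14KD, without overlap, and 12 of its 15 sites lay below 0.

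Scd2, a fatty acid desaturase, lay farthest below 0 among the 10. Its pair ratios were -1.01 and -0.96 in SCR against -1.16 and -1.21 in M14KD, without overlap. The IP fell by 0.47 ± 0.08 (SE; adjusted p = 0.0209, edgeR), the Input change was -0.27 ± 0.08, and the change of IP over Input was -0.20 ± 0.11 (interval -0.44 to 0.04). Of its 20 tested sites 17 lay below 0, and at 12 both M14KD ratios lay below both SCR ratios and at 0 above, beside 18.1% and 17.2% of all sites. Neighbouring sites of a gene are not independent. Peg10, a gene derived from a retrotransposon, lay on the other side, at 0.10 ± 0.15, with ratios of 0.66 and 0.65 in SCR against 0.75 and 0.76 in M14KD. Of its 61 sites 43 lay above 0. At 17 both M14KD ratios lay above both SCR ratios and at 3 below, beside 17.2% and 18.1% of all sites.

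Irs2, an adaptor of the insulin receptor, had 68 sites, 31 above 0 and 37 below, and a gene-level change of 0.01 (interval -0.18 to 0.21). Jund, a transcription factor of the AP-1 family, had a gene-level change of 0.09 ± 0.11 (SE), with 9 of 15 sites above 0. Its IP change was -0.31 ± 0.08 and its Input change -0.40 ± 0.08, and neither passed at gene level. The IP change passed at 4 of its sites and the Input change at 4 (edgeR). For IP over Input the unadjusted p was under 0.05 at 4 of the Jund sites, with changes of 0.34 to 0.47. These 4 sites are neighbours, between chr8:70699771 and chr8:70699808 (mm10), and were picked out after their values were seen. Their adjusted p was close to 1 in each case.

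**Figure D3:**
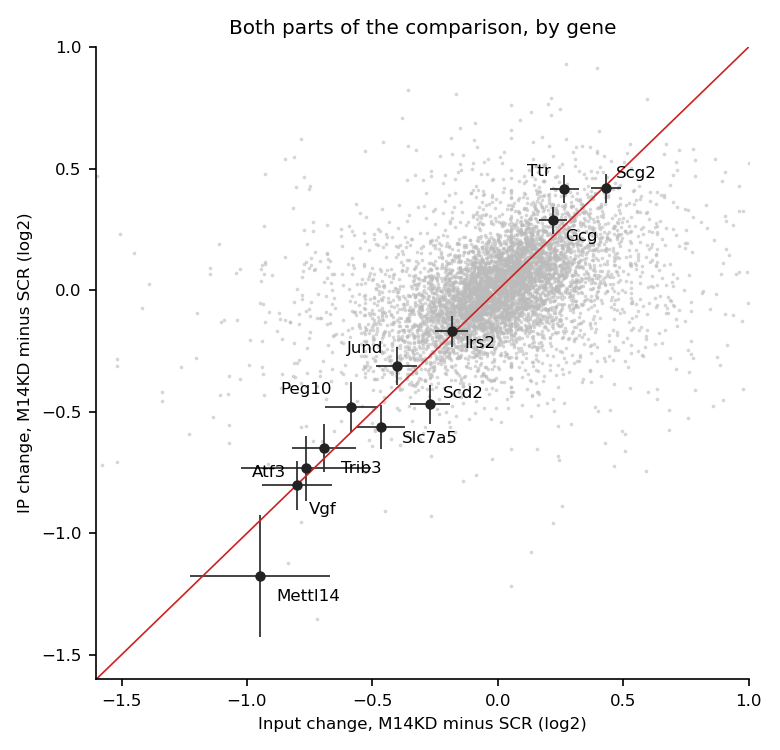
Each labelled point is 1 of the 12 followed genes, with its Input change on the horizontal axis and its IP change on the vertical axis (both M14KD minus SCR, log2; bars are SE). Grey points are tested genes with both SEs under 1, and the red line marks equal changes, where IP over Input does not change. Vgf lies on the line at -0.80 in both fractions, Ttr lies above it and Scd2 below it.

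**Figure D4:**
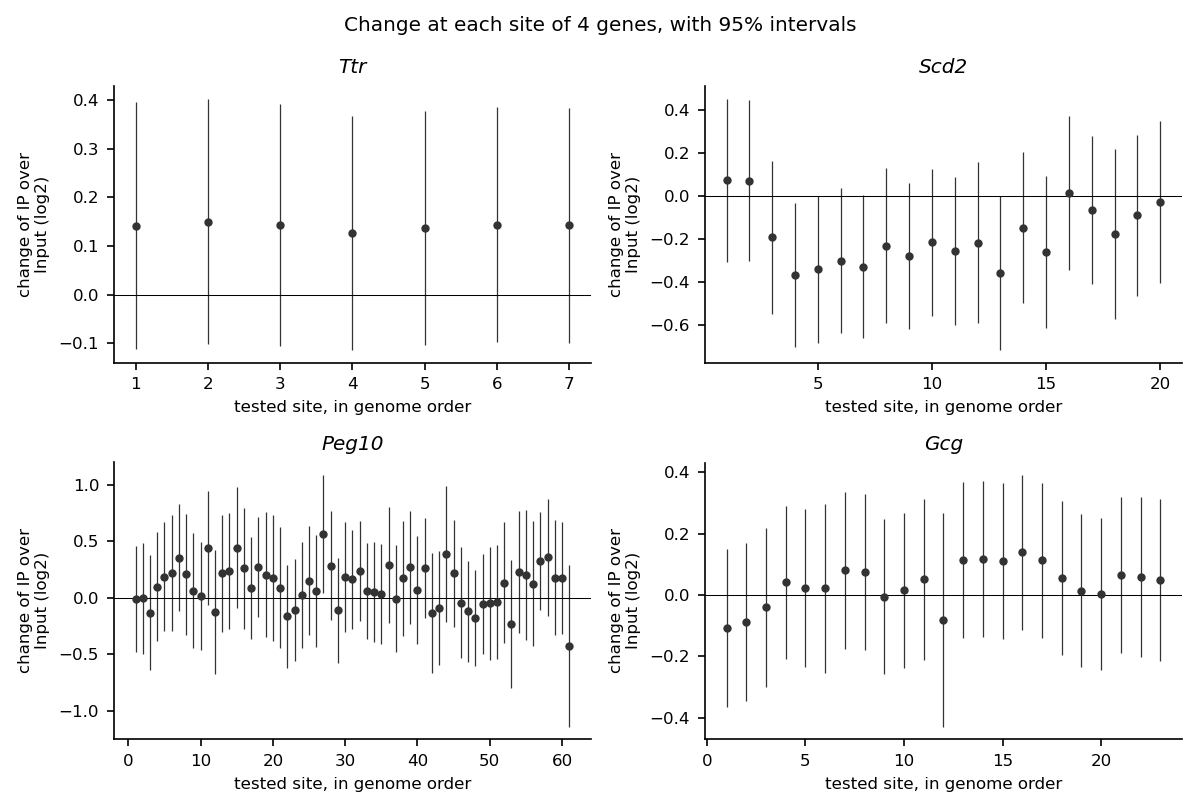
The change of IP over Input (log2) at each tested site of Ttr, Scd2, Peg10 and Gcg, in genome order, with 95% intervals before adjustment. All 7 Ttr sites and 43 of 61 Peg10 sites lie above 0, and 17 of 20 Scd2 sites lie below it. Vertical scales differ between the panels.

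The remaining lists had no call either. Of 16 tested secretory granule genes 9 lay below 0, with a median of -0.01, and in 5 both M14KD ratios lay below both SCR ratios while in 0 they lay above, where all genes gave 18.4% below and 18.1% above. The 5 were Ptprn2 and Ptprn, granule membrane proteins, Scg3, a granin, Pcsk2, the convertase that processes proglucagon, and Syt13, a synaptotagmin. Their changes were -0.33 ± 0.16, -0.18 ± 0.13, -0.16 ± 0.17, -0.08 ± 0.09 and -0.03 ± 0.11 (SE). The median of the list changed sign between settings, scalings included, from -0.03 (without M14KD replicate 4) to 0.01 (IP and Input scaled separately). The abundant granins Chga and Chgb lay at 0.00 ± 0.09 and 0.05 ± 0.10.

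Of 25 tested genes of amino acid transport and metabolism 14 lay above 0, with a median of 0.01, while their median IP and Input changes were -0.21 and -0.18. Psph, an enzyme of serine synthesis, had a change of 0.39 ± 0.18 (SE), and Shmt1, which passes on serine's carbon to folate, one of 0.57 ± 0.28. Asns, the asparagine synthetase, had -0.07 ± 0.11. Stress-response genes had a median of -0.02 (26 tested), insulin, IGF and mTOR genes 0.01 (23), splicing and polyadenylation genes -0.01 (23), immediate early genes 0.03 (16), and chromatin regulators 0.03 (37). Cell cycle genes had a median of -0.05 (26), ribosomal proteins and translation factors -0.05 (16), and ion channels and receptors -0.03 (16). In splicing and polyadenylation 7 of 23 genes had M14KD ratios below both SCR ratios, among them Hnrnpdl at -0.44 ± 0.16 and Luc7l3 at -0.73 ± 0.29. In 4 they lay above, beside 18.4% below and 18.1% above of all genes. By the same rule 4 of the 26 stress-response genes lay below and 0 above. Of the 25 amino acid genes 5 lay below and 8 above. Of the 23 insulin, IGF and mTOR genes 2 lay below and 6 above.

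Of 4 tested interferon response genes all lay below 0, with a median of -0.18, beside 0.00 over all tested genes. Ifit2, an interferon-induced RNA-binding protein, lay farthest, on Input counts of 1 and 2 in SCR against 8 and 6 in M14KD and IP counts of 31 and 27 against 35 and 26, and no fold is given. Adar, an RNA-editing enzyme, lay at -0.02 ± 0.16 (SE). Of the list only Ifit2 had an unadjusted p under 0.05.

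All 7 tested mitochondrially encoded genes lay above 0, from 0.03 (CYTB) to 0.18 (ND6), with a median of 0.07 and overlapping pairs in each. Without SCR replicate 2 only 4 of them lay above 0 (median 0.01), and without M14KD replicate 4 it was 5 (median 0.01), while the other 12 settings kept all 7 above 0. COX1, a subunit of cytochrome oxidase, had pair ratios of -2.74 and -2.89 in SCR against -2.74 and -2.63 in M14KD, and a change of 0.13 ± 0.08 (SE).

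The sites with the lowest p values are given by value, since none passed. The lowest of all lay in Tenm4, a teneurin receptor of the cell surface (chr7:96906719, mm10). Its Inputs held 6 and 7 counts in SCR against 19 and 19 in M14KD, and its IPs 97 and 116 against 63 and 67. Input was higher and IP lower in both M14KD libraries, and the change was -2.25 ± 0.46 (SE; adjusted p = 0.891, edgeR), on Input counts that did not exceed 19.

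Deeper sites gave smaller values. In Uck2, a uridine and cytidine kinase (chr1:167226134), the Inputs held 350 and 343 counts in SCR against 459 and 426 in M14KD, with IP counts of 3220 and 3268 against 3080 and 2966, and the change was -0.45 ± 0.13. In Lrpap1, a chaperone of lipoprotein receptors (chr5:35093157), the pair ratios were 1.20 and 1.07 in SCR against 0.62 and 0.26 in M14KD, and the change was -0.70 ± 0.19. Its IP fell by 0.39 ± 0.10 (adjusted p = 0.0441, edgeR), and its Input change was 0.30 ± 0.16. In Ywhab, a 14-3-3 protein (chr2:164016775), the ratios were -1.17 and -1.13 against -1.76 and -1.63, and the change was -0.55 ± 0.16.

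Below 0 there followed sites in Mrps30, a mitochondrial ribosomal protein (-0.90 ± 0.22), Ppp1r26 (-1.79 ± 0.47), Ccp110, a centriole protein (-2.12 ± 0.60), Eif1ad (-0.65 ± 0.19) and Ippk, the kinase that makes inositol hexakisphosphate (-1.09 ± 0.33). In Zfp846 (chr9:20593476) the Inputs held 0 and 0 counts in SCR against 5 and 6 in M14KD and the IPs 38 and 35 against 53 and 42, and no fold is given.

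Above 0, Atoh8, a basic helix-loop-helix factor, held the site that the block called (chr6:72206776). Its Inputs held 216 and 105 counts in SCR against 96 and 114 in M14KD, and its IPs 266 and 256 against 496 and 281. The first SCR Input and the first M14KD IP stood apart from their partners. The pair ratios were -1.98 and -0.98 in SCR against 0.09 and -0.97 in M14KD, so the genotypes met within 0.01 and SCR pair 1 and M14KD pair 3 hold most of the difference. The change was 1.19 ± 0.30 (SE; adjusted p close to 1 without the block, and 1.17 ± 0.20, adjusted p = 0.00375, with it; both edgeR). With 1 pair left out the value depended on which: it was 0.592 without SCR replicate 1, 0.603 without M14KD replicate 3 and 1.67 without M14KD replicate 4, and none of these passed. Without SCR replicate 2 it passed at 1.60 (adjusted p = 0.000184, edgeR), but there SCR replicate 1 stands alone for both SCR groups and is assumed to vary as the M14KD libraries do.

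Other sites above 0 lay in Mapk8ip2, a scaffold of the JNK pathway (0.82 ± 0.23), Lrrc8d, a subunit of the volume-regulated anion channel (1.48 ± 0.39), Adprhl2, an ADP-ribose hydrolase (0.92 ± 0.26), and Usp47, a deubiquitinase (1.79 ± 0.42). Abcf1, a translation factor of the ABC family, followed with 0.97 ± 0.28, and Zzz3, a chromatin reader, with 1.17 ± 0.34. Espnl and Trim7 had Input counts of 0 to 2 in the M14KD libraries, and no fold is given for them. The Mapk8ip2 site had Input counts of 70 and 68 in SCR against 37 and 30 in M14KD and IP counts of 775 and 852 against 670 and 719, so its change was that of the Input (-0.98 ± 0.21) more than of the IP (-0.16 ± 0.09).

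Input held the larger part of the change at 16 of the 20 sites named by lowest p and at 19 of the 20 genes. They were picked by the p of this same change, and Input has the larger error (median SE over sites of 0.26 against 0.14 in IP). These counts thus follow in part from the choice, and the share over all tested features was not computed. At 8 of the 20 sites at least 1 Input library had 10 counts or fewer. Among genes, Farp1, a guanine exchange factor, had the lowest p, with pair ratios of 1.56 and 1.70 in SCR against 0.41 and 0.28 in M14KD and a change of -1.33 ± 0.35 (SE; adjusted p = 0.999, edgeR) on 12 to 21 Input counts. Zfp207, a spindle-assembly protein, was the deepest of the 10 below 0, with Input counts of 351 and 354 in SCR against 468 and 386 in M14KD. Its ratios were 1.62 and 1.55 against 1.11 and 1.23, and its change was -0.42 ± 0.13.

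The other 8 genes below 0 lay between -1.39 (Zfp846) and -0.48 (Bud23, a methyltransferase of ribosomal RNA). They include Rxylt1, an enzyme of dystroglycan glycosylation, at -0.60 ± 0.17, on Input counts of 152 and 162 in SCR against 222 and 227 in M14KD and IP counts of 455 and 418 against 386 and 426. Above 0, Adprhl2 was the deepest, with Input counts of 297 and 223 against 168 and 184, IP counts of 1873 and 1959 against 1888 and 1954, and a change of 0.58 ± 0.17. Cdk5, a kinase active in endocrine cells and neurons, had 0.95 ± 0.33, and Syt14, a synaptotagmin, 0.83 ± 0.27.

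**Figure D5:**
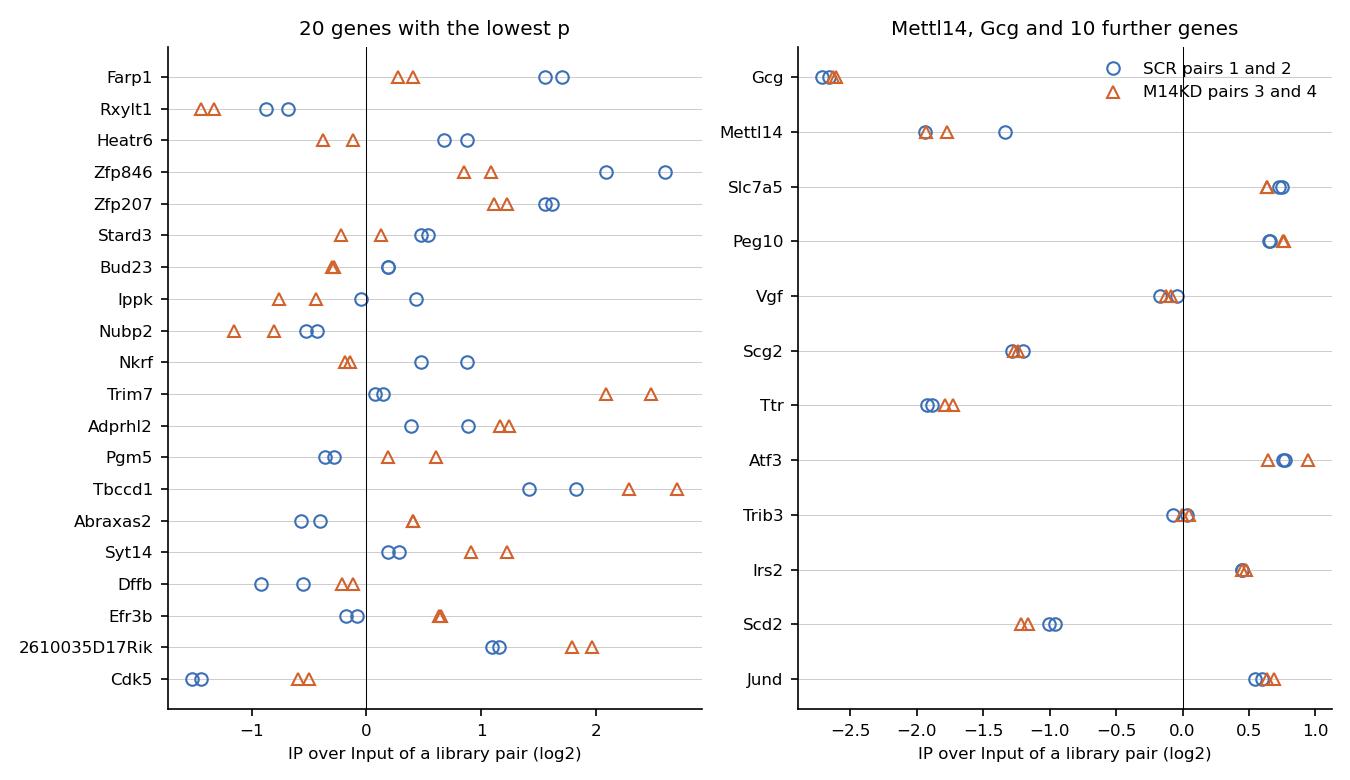
IP over Input (log2) of each library pair, with circles for the SCR pairs and triangles for the M14KD pairs. Left, the 20 genes named by lowest p, which were required not to overlap between genotypes. Right, Mettl14, Gcg and 10 genes named in earlier work, where Vgf, Scg2, Trib3, Irs2, Atf3 and Mettl14 overlap, and Scd2 lies at -1.01 and -0.96 in SCR against -1.16 and -1.21 in M14KD.

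Where IP alone changed, Input had mostly moved the same way. The 182 sites whose IP fell lay in 72 genes, with 29 of them in Peg10. Their median IP change was -0.51, their median Input change -0.38 and their median change of IP over Input -0.13. In 179 of them IP and Input had the same sign. The 118 sites whose IP rose lay in 52 genes, with 19 of them in Scg2. They had medians of 0.44, 0.30 and 0.13, with 116 of the same sign. Sites of a gene are not independent, and the same-sign share over all sites is not given. Of both sets 0 sites passed for IP over Input by edgeR, and 10 and 8 had an unadjusted p under 0.05. These sites were chosen by IP libraries that are also part of the change of IP over Input, so the direction of these medians follows from the choice.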

How the data were processed

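The single deposited table holds read counts per site in 8 libraries on 1 shared site list. STAR, cutadapt and UMI-tools are named with the build mm10, per the submitters' processing notes. The sources used here give no versions, site caller or counting window, nor whether counts are unique molecules. The deposited counts are whole and not normalized, per the file headers and the values, and 0 columns were left unassigned.

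Sites were named by RefSeq spans (GRCm38.p6). Sites in several coding spans (1272) or in no span (559) stayed out of gene sums, and 1065 named sites also lay in another span. Strand was not used, so overlapping antisense genes cannot be told apart. Counts were fitted with edgeR 4.0.16 in R 4.3.3 (filterByExpr, TMM, 1 mean per group, quasi-likelihood F-test, Benjamini-Hochberg adjustment, threshold 0.05). SE is the absolute log2 change over the square root of F. Pair ratios are log2 CPM of IP minus Input of the same replicate number, with a prior count of 2. The same-numbered libraries deviated together (r = 0.26 in SCR and 0.16 in M14KD over 23278 sites, 0.37 and 0.26 over 5212 genes), so the numbers were taken as pairing. Replicate pairs exceeded sampling noise, with chi-square over degrees of freedom of 1.38 to 2.56, and each library entered once. The main edgeR fit was run on simulated counts with known changes in 200 features. These counts were drawn with a common dispersion and without pairing of libraries. The alternatives, pair ratios and classes were not simulated.

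Named were, each way, the 10 lowest p among sites and genes whose pairs do not overlap (1 site a gene), Mettl14, Gcg, and the 2 lowest p of each list with at least 5 tested genes; of the last, those not needed above are left out. Members and the 18 lists were chosen with earlier results of these data known. Alternatives were DESeq2 1.42.0, limma 3.58.1 on pair ratios, the replicate block, 4 other scalings, 2 other filters, 1 site per 100 bases, and each replicate left out. The near and far gap with its within-gene and class values, and the start sites, were added after seeing the data. The result of 1 gene is not reported here.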

Additional observations from a re-analysis of the deposited data

Results flagged for a closer look

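At some named sites and genes both SCR pairs lay on one side of 0 in IP over Input. Both M14KD pairs lay on the other. This 0 is set by the scaling on site counts and lies near the median site (0.06 in SCR and 0.04 in M14KD). Raw IP counts can exceed Input counts below it too, as at the Tenm4 site in M14KD (63 and 67 against 19 and 19). Crossing it therefore does not mean that raw IP moved from above Input to below it. The change itself was tested and did not pass at any of them (edgeR, adjusted p of 0.891 or more). Among sites the changes were -2.25 in Tenm4, -0.903 in Mrps30, -1.79 in Ppp1r26, -1.09 in Ippk and 0.703 in Pgm5. Among genes they were -1.05 in Heatr6, -0.48 in Bud23, -0.872 in Nkrf, 0.713 in Pgm5, 0.919 in Abraxas2 and 0.783 in Efr3b, with 0.263 in Nkx2-2, -0.327 in Ptprn2 and 0.0879 in Btg2, named for their lists. Over all tested features 2.22% of sites and 1.72% of genes had such a pattern. The Pgm5 site and gene are the same measurement, since that gene has 1 site.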

How the results depend on the processing

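Over 14 alternatives, sites called were 0 in 12 and 1 with the replicate block and without replicate 2 (the Atoh8 site, at 1.17 and 1.60), so 0 to 1 with replicates left out. Without replicate 2 each SCR group holds 1 library, which is assumed to vary as the M14KD groups do. The site was at 0.592, 0.603 and 1.67, not called, without replicates 1, 3 and 4. Genes called were 0 in all 14, and the block changed no other call. Sites at an unadjusted p under 0.05 ran from 318 to 1997 and genes from 58 to 421. The median change of the top minus the bottom enrichment class, 0.01, became -0.0338 with scaling on the 25% of sites with the lowest IP over Input. With classes made anew without a replicate it ran from -0.198 to 0.198, because the class mean then rests on unequal numbers of libraries per genotype, and with classes held from all 4 pairs it ran from -0.0535 to 0.0265. Near minus far sites, -0.08, ran from -0.0945 (without replicate 4) to -0.0793 with replicates left out. Start sites minus others, 0.09, ran from 0.0580 without replicate 3 to 0.140 without replicate 4.

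Small values of named genes changed sign. Vgf (-0.00) was 0.0121 with DESeq2, 0.0120 with its size factors, 0.0159 with separate TMM, 0.00195 with no filter and 0.00889 at a mean count of at least 20. Scg2 (-0.01) was 0.00137, 0.00138 and 0.00539 in the first 3 of these. With replicates left out Vgf ran from -0.0640 to 0.0651, Scg2 from -0.0514 to 0.0317, Trib3 from -0.00827 to 0.0982, Mettl14 from -0.560 to 0.0565, Pcif1 from -0.554 to 0.161, ND6 from -0.0705 to 0.396, Atf3 from -0.120 to 0.185 and Irs2 from -0.00348 to 0.0304. Of the values of named sites and genes under these alternatives, the other 994 kept their direction and their side of the threshold. This count is no measure of robustness. The 20 sites and 20 genes named by lowest p were required not to overlap between genotypes, so leaving out a pair could hardly turn them. Since no feature passed in the main fit, their side of the threshold was largely set as well. Of the 2 fractions, Input had the larger error, with a median SE of 0.26 against 0.14 in IP.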
